A study of Homo sapiens with 2 samples.

Results

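The miR-30 family was followed in small RNA sequencing of material pulled down with the long noncoding RNA UCA1 from MDA231 cells. The 7 members were taken by name from the 2588 mature miRNAs listed: the 5p strands hsa-miR-30a-5p, hsa-miR-30b-5p, hsa-miR-30c-5p, hsa-miR-30d-5p and hsa-miR-30e-5p, and the opposite strands hsa-miR-30a-3p and hsa-miR-30e-3p. MDA231 (MDA-MB-231) is an established, invasive human breast cancer cell line. The UCA1-MS2 group was MDA231-UCA1-MS2 cells, which express UCA1 tagged with MS2 hairpins, and the control group was MDA231-Con cells. The study's list of associated miRNAs heads the control as MS2, the construct of these cells is described no further in the sources used here, and it is not stated whether either line is 1 clone. Lysates of both lines were held for 5 h on amylose resin carrying MBP-MCP, a fusion of maltose-binding protein and the MS2 coat protein, and bound complexes were released with 20 mM maltose. There was 1 library per group, so no difference given here has a replicate check, no p-value is given, and every interval covers counting error only.

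A miRNA hairpin is cut into a duplex whose strands come from its 5′ arm (5p) and its 3′ arm (3p). One strand is usually loaded into Argonaute as the guide, and its bases 2 to 8, the seed, are the main determinant of which RNAs it pairs with. The miR-30 5p strands share their seed and are expressed in many epithelial and mesenchymal tissues. In breast cancer models they are known for restraining invasion and the self-renewal of tumor-initiating cells.

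Mature sequences from RefSeq (GRCh38.p14) are shown for 5 of the 7 members. Some of these members differ at 1 base only, which bears on how reads were assigned to them. Capitals mark the seed, and all sequences run 5′ to 3′.

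hsa-miR-30a-5p: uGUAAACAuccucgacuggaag
hsa-miR-30e-5p: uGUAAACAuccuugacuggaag
hsa-miR-30c-5p: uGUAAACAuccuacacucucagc
hsa-miR-30a-3p: cUUUCAGUcggauguuugcagc
hsa-miR-30e-3p: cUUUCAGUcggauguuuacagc

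The 5p strands of miR-30a and miR-30e differed by the substitution C13U alone, with positions counted from 1 at the 5′ end and the base of miR-30a first. Their 3p strands differed by G18A alone. miR-30c-5p shared the first 12 bases with miR-30a-5p and was 23 rather than 22 nucleotides long. The number of mismatches allowed and the handling of reads that match several miRNAs are not given in the sources used here, so counts of near-identical members may be split between them. The remaining members are miR-30b-5p and miR-30d-5p, whose sequences were not examined here.

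The genes of these sequences lie in introns (GENCODE release 29, GRCh38). MIR30A, at chr6:71403551-71403621 on the minus strand, and MIR30C2, at chr6:71376960-71377031 on the same strand, lie in introns of the long intergenic noncoding RNA genes LINC00472 and AL136164.2. MIR30E, at chr1:40754355-40754446, and MIR30C1, at chr1:40757284-40757372, lie on the plus strand in an intron of NFYC, which encodes a subunit of a CCAAT-binding transcription factor. miR-30c-5p has the same sequence from MIR30C1 and MIR30C2, so its counts are not divided between these loci. The hairpins of MIR30A and MIR30E are shown with both arms in capitals, because the main differences between the libraries lay between the arms.

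MIR30A: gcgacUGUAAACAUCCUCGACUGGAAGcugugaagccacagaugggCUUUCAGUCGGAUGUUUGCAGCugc
MIR30E: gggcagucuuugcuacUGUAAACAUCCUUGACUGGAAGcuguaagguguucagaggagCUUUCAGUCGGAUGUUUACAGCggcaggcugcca

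The UCA1-MS2 library had 20037 miRNA counts and the control library 72579. The library totals behind the RPM, recovered from counts and RPM, came to 12405521 and 12912336, and miRNA counts made up 0.162% and 0.562% of them. Which reads these totals take in was not established. No count between 0 and 10 was listed, so a listed 0 can hide up to 9 counts, which is 0.0449% of the miRNA counts in the UCA1-MS2 library and 0.0124% in the control library. Shares of the miRNA counts were compared first, and RPM second. Of 5 miRNAs known to be abundant in this cell line, all 5 were counted in both libraries, and their summed share was 31.6% in the UCA1-MS2 library and 45.7% in the control library. They did not move together. In share, 2 were past 2-fold higher and 1, miR-100-5p, past 2-fold lower in the UCA1-MS2 library, with log2 ratios from -2.62 to 2.06. Of 6 epithelial markers, 2 were counted in the UCA1-MS2 library (0.564% in sum) and 1 in the control library (0.0289%), with miR-200c-3p, miR-141-3p, miR-429 and miR-205-5p at 0 in both. Of 4 erythroid markers, 1 was counted, at 0.105% and 0.0744%, and miR-451a was at 0 in both. Whether other cell types had any part in the miR-30 values was not tested.

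The 5p strands held nearly the same share of the miRNA counts in both libraries, but not in the same proportions, whereas the 3p strands were lower in the UCA1-MS2 library. The 5 5p strands together had 772 counts in the UCA1-MS2 library, 3.85% of the miRNA counts (95% Wilson interval 3.60 to 4.13%), and 2934 in the control library, 4.04% (3.90 to 4.19%). The ratio of these shares was 0.953 (95% exact conditional interval 0.879 to 1.03), so a difference in the summed share was not detectable at this depth. Its log2 ratio of -0.07 became -0.45 with DESeq2 size factors and -1.87 in RPM. The 2 listed 3p strands together had 41 and 579 counts, or 0.205% (0.151 to 0.277%) and 0.798% (0.736 to 0.865%), and were 3.90-fold lower in the UCA1-MS2 library (2.84 to 5.49).

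**Figure D1:**
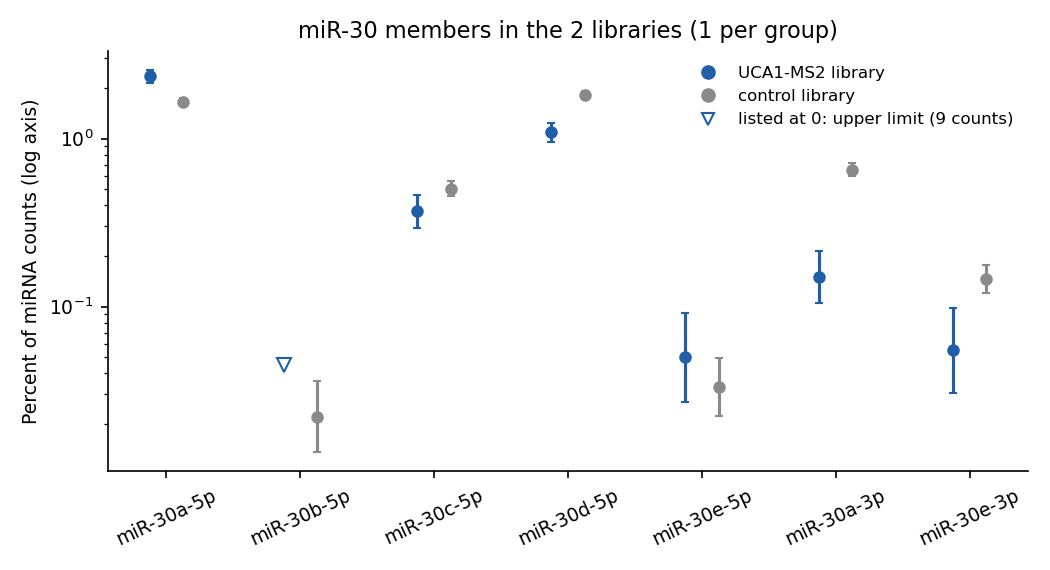
Share of the miRNA counts (percent, log axis) of each miR-30 member in the UCA1-MS2 (blue) and the control (gray) library, 1 library each, with bars for the 95% Wilson interval and an open triangle for the limit of a listed 0. On this scale, though not in RPM, miR-30a-5p lay higher in the UCA1-MS2 library (2.35% against 1.66%), while miR-30d-5p, miR-30a-3p and miR-30e-3p lay lower.

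miR-30a-5p, the 5p strand of the MIR30A hairpin, had 470 counts in the UCA1-MS2 library, 2.35% of the miRNA counts (95% Wilson interval 2.15 to 2.56%), and 1202 in the control library, 1.66% (1.57 to 1.75%). Relative to the miRNA counts it was 1.42-fold higher in the UCA1-MS2 library (95% exact conditional interval 1.27 to 1.58), a direction that is turned around in RPM. With DESeq2 size factors its log2 ratio fell from 0.50 to 0.12, which is outside this interval. By count miR-30a-5p ranked 9 among the miRNAs of the UCA1-MS2 library and 10 in the control library.

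miR-30d-5p was the other abundant 5p strand. It had 218 counts, 1.09% (0.953 to 1.24%), in the UCA1-MS2 library and 1327 counts, 1.83% (1.73 to 1.93%), in the control library, and was 1.68-fold lower in the former (1.46 to 1.95). Its rank was 19 in the UCA1-MS2 library and 9 in the control library, where it was the most counted member of the family. miR-30c-5p, which is made from loci on 2 chromosomes, had 74 counts, 0.369% (0.294 to 0.463%), and 365 counts, 0.503% (0.454 to 0.557%), and was 1.36-fold lower (1.06 to 1.77).

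The remaining 5p strands were near the lower limit of the tables. miR-30e-5p had 10 counts in the UCA1-MS2 library, 0.0499% (0.0271 to 0.0919%), and 24 in the control library, 0.0331% (0.0222 to 0.0492%). Its ratio of 1.51 had an interval from 0.644 to 3.27, which does not settle a direction. miR-30b-5p was listed at 0 in the UCA1-MS2 library and had 16 counts, 0.0220% (0.0136 to 0.0358%), in the control library. With a listed 0 hiding as much as 0.0449%, its level in the UCA1-MS2 library could be up to 2.04 times that of the control, and a difference was not detectable at this depth.

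The 3p strands differed most. miR-30a-3p had 30 counts in the UCA1-MS2 library, 0.150% (0.105 to 0.214%), and 473 in the control library, 0.652% (0.596 to 0.713%), so that it was 4.35-fold lower in the UCA1-MS2 library (3.01 to 6.52). miR-30e-3p had 11 counts, 0.0549% (0.0307 to 0.0983%), and 106 counts, 0.146% (0.121 to 0.177%), and was 2.66-fold lower (1.43 to 5.49). The lower end of this interval is under 2-fold. These strands differ at 1 base, and the ratio of miR-30a-3p to miR-30e-3p was 2.73 in the UCA1-MS2 library and 4.46 in the control library, an odds ratio of 0.611 (0.287 to 1.40).

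Read against all miRNAs, a 2-fold difference was common. Of 151 miRNAs whose counts in both libraries summed to at least 10, 42 (27.8%) were at least 2-fold higher and 19 (12.6%) at least 2-fold lower in the UCA1-MS2 library relative to the miRNA counts, with a listed 0 read as 9 counts. Of the 7 members, 0 were past 2-fold higher and 2 were past 2-fold lower, namely miR-30a-3p and miR-30e-3p. miR-30d-5p joined them with DESeq2 size factors, at a log2 ratio of -1.13, a scale on which 32 of the 151 miRNAs were past 2-fold lower. Over the 6 members counted in both libraries the median log2 ratio of the UCA1-MS2 over the control library was -0.60, beside 0.38 over all 90 miRNAs counted in both. Ordered from the lowest of these 90 log2 ratios, miR-30a-3p was at place 5, miR-30e-3p at 11, miR-30d-5p at 24, miR-30c-5p at 34, miR-30a-5p at 50 and miR-30e-5p at 52. Among these 90, the 5p strands thus lay in the middle and the 3p strands in the lower part. The 90 leave out miRNAs listed at 0 in either library. A listed 0 hides a larger share in the UCA1-MS2 library (0.0449%) than in the control library (0.0124%). There, 102 and 139 miRNAs were listed above 0. The distribution is therefore cut more on its low side, and calls of lower are limited in the same way. With 0.5 counts added, 42 of the 151 were higher and 67 lower.

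**Figure D2:**
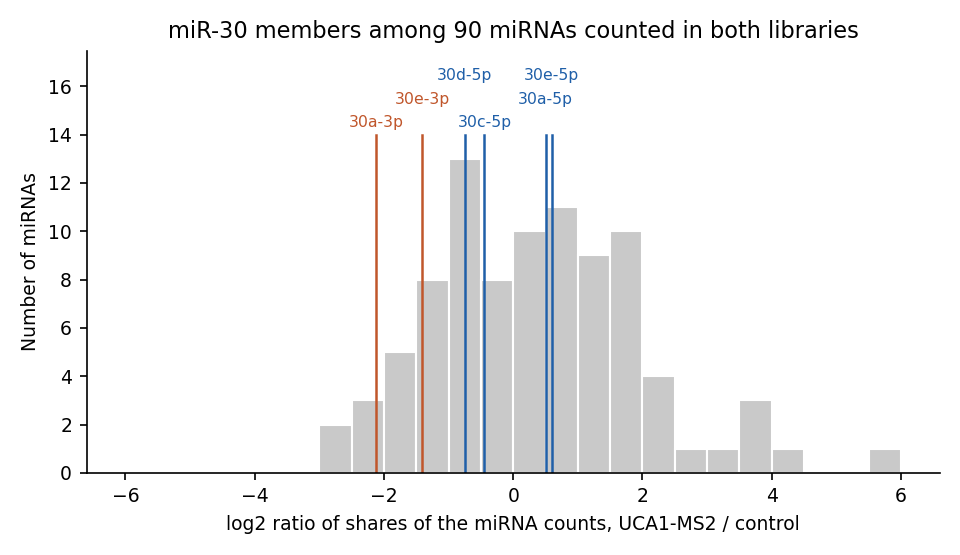
Histogram of the log2 ratio of shares of the miRNA counts (UCA1-MS2 over control) for the 90 miRNAs counted in both libraries, with lines at the 5p (blue) and 3p (orange) members of the family. The 3p strands lie at -2.12 and -1.41, and the 4 5p strands lie between -0.75 and 0.59.

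The direction of miR-30a-5p and miR-30e-5p depended on the scale. In RPM, which divides by the library total, the values of every member were lower in the UCA1-MS2 library. miR-30a-5p had 37.9 RPM in the UCA1-MS2 library and 93.1 RPM in the control library, and miR-30d-5p had 17.6 and 103 RPM. miR-30c-5p had 5.97 and 28.3 RPM, and miR-30e-5p had 0.806 and 1.86 RPM. On this scale miR-30a-5p was 2.46-fold lower (2.21 to 2.74) and miR-30d-5p 5.85-fold lower (5.06 to 6.78). For the 3p strands, RPM were 2.42 and 36.6 for miR-30a-3p, which was 15.1-fold lower (10.5 to 22.7), and 0.887 and 8.21 for miR-30e-3p, which was 9.26-fold lower (4.97 to 19.1). miR-30b-5p had 1.24 RPM in the control library, and the limit of 0.725 RPM for its listed 0 makes it at least 1.71-fold lower in the UCA1-MS2 library. In RPM 6 of the 7 members were past 2-fold lower and 0 past 2-fold higher, against 57.0% and 7.28% of the 151 miRNAs. The change of scale moves every log2 ratio by -1.80 alike, and which total is the right divisor was not established here. Ratios between members do not depend on it.

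**Figure D3:**
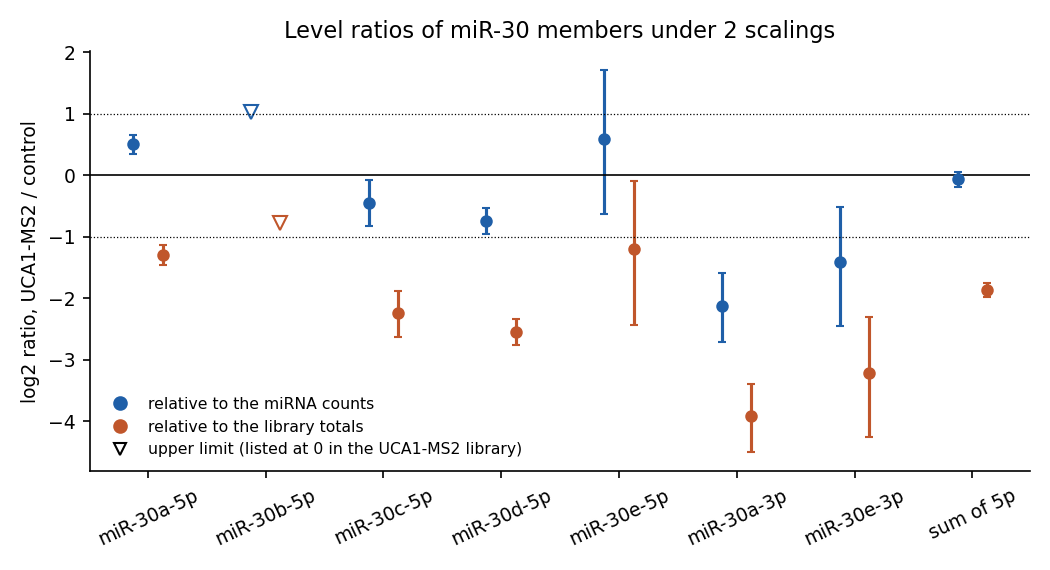
log2 ratio of the UCA1-MS2 over the control library for each member and for the summed 5p strands, relative to the miRNA counts (blue) and to the library totals (orange), with bars for the 95% exact conditional interval, open triangles for upper limits and dotted lines at 2-fold. The order of the members is the same on both scales, from 0.50 to -1.30 for miR-30a-5p and from -2.12 to -3.92 for miR-30a-3p.

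Within the 5p strands the balance between miR-30a-5p and miR-30d-5p was turned around. miR-30a-5p made up 60.9% of the 772 5p counts in the UCA1-MS2 library (95% Wilson interval 57.4 to 64.3%) and 41.0% of the 2934 in the control library (39.2 to 42.8%), an odds ratio of 2.24 (95% exact conditional interval 1.90 to 2.65). miR-30d-5p made up 28.2% (25.2 to 31.5%) and 45.2% (43.4 to 47.0%), an odds ratio of 0.477 (0.399 to 0.568). How reads were divided between miR-30a-5p and miR-30d-5p is not known, and the sequence of the latter was not examined. Summing miR-30a-5p, miR-30d-5p and miR-30e-5p adds these opposite shifts. The 3 strands then made up 90.4% and 87.0% of the 5p counts, an odds ratio of 1.41 (1.08 to 1.86). There were 2.16 counts of miR-30a-5p per count of miR-30d-5p in the UCA1-MS2 library and 0.906 in the control library, so that the ratio between these strands, which pair through the same seed, differed 2.38-fold (1.98 to 2.86).

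The minor 5p strands differed less. miR-30c-5p held 9.59% (7.70 to 11.9%) and 12.4% (11.3 to 13.7%) of the 5p counts, an odds ratio of 0.746 (0.565 to 0.975). miR-30e-5p held 1.30% (0.705 to 2.37%) and 0.818% (0.550 to 1.21%), and its odds ratio of 1.59 had an interval from 0.676 to 3.47. miR-30b-5p held 0.545% (0.336 to 0.884%) in the control library, below the 1.17% that 9 counts would make in the UCA1-MS2 library.

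**Figure D4:**
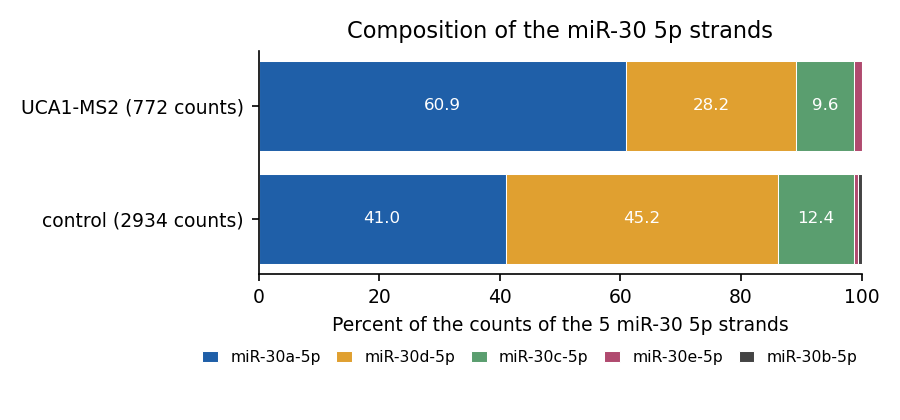
Percent of the counts of the 5 miR-30 5p strands taken by each strand in the UCA1-MS2 and the control library, 1 library each. miR-30a-5p (blue) takes 60.9% against 41.0%, and miR-30d-5p (yellow) 28.2% against 45.2%.

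The arms of a hairpin come from the same precursor, and their ratio does not depend on library size. For miR-30a there were 15.7 counts of the 5p per count of the 3p strand in the UCA1-MS2 library and 2.54 in the control library, an odds ratio of 6.17 (95% exact conditional interval 4.18 to 9.38). The 3p strand made up 6.0% of the miR-30a counts in the UCA1-MS2 library (95% Wilson interval 4.23 to 8.44%) and 28.2% in the control library (26.1 to 30.4%). For miR-30e the 3p strand was the more counted arm in the control library, at 81.5% (74.0 to 87.3%), but made up 52.4% (32.4 to 71.7%) of 10 and 11 counts in the UCA1-MS2 library. Its 5p to 3p ratios were 0.909 and 0.226, an odds ratio of 4.02 (1.35 to 11.7). By the listed counts, both hairpins moved toward the 5p strand in the UCA1-MS2 library, and their intervals overlap. The 10 counts of miR-30e-5p are the lowest number listed, and this strand differs from miR-30a-5p at 1 base. Whether its counts include reads of miR-30a-5p was not tested.

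Because the 5p strands of these hairpins differ at 1 base, and so do their 3p strands, the hairpins were also summed. The 5p to 3p ratio was then 11.7 in the UCA1-MS2 library and 2.12 in the control library, an odds ratio of 5.53 (3.94 to 7.92). Over the 7 members the 3p strands made up 5.04% of 813 counts (3.74 to 6.77%) and 16.5% of 3513 counts (15.3 to 17.7%). The other 3p strands of the family gave little. miR-30c-2-3p had 27 counts in the control library, where there were 13.5 counts of miR-30c-5p for each, and was listed at 0 in the UCA1-MS2 library, where this ratio was at least 8.22. miR-30b-3p, miR-30c-1-3p and miR-30d-3p were listed at 0 in both libraries.

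Of the 5 hairpins with at least 10 counts on each arm in each library, only these 2 had a higher 5p to 3p ratio in the UCA1-MS2 library, and the other 3 had a lower one. The odds ratio was 0.322 for miR-27a (0.201 to 0.511), 0.253 for miR-99b (0.129 to 0.526) and 0.138 for miR-221 (0.0622 to 0.275). The interval of every one of the 5 leaves out 1. A difference in arm ratio between the libraries was therefore not particular to miR-30. Read by the arm with more counts over both libraries instead, miR-30a, miR-27a and miR-221 moved toward that arm in the UCA1-MS2 library, and miR-30e and miR-99b moved away from it.

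Set beside other widely expressed families, the miR-30 5p strands kept an intermediate position. The let-7 guide strands, of which 8 of 9 were counted in both libraries, held 13.5% of the miRNA counts in the UCA1-MS2 library and 18.9% in the control library, with log2 ratios of single members from -1.33 to 0.61. The log2 ratios of the 4 miR-30 5p strands counted in both ran from -0.75 to 0.59. Relative to let-7, the miR-30 5p sum was 1.33-fold higher in the UCA1-MS2 library than in the control library (1.22 to 1.46). The miR-23/24/27 strands held 1.69% and 0.704%, with log2 ratios of single members from -0.53 to 1.92. Against their sum, the miR-30 5p sum was 2.51-fold lower (2.14 to 2.95). Relative to the miR-29 family, of which miR-29a-3p alone was counted, it was 3.37-fold lower (2.11 to 5.35).

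Among 22 other miRNAs with at least 100 counts in each library, the 3 whose log2 ratio was nearest to the -0.07 of the 5p sum were miR-4488 at -0.51, miR-92a-3p at -0.56 and miR-3184-3p at -0.56. Likeness over 2 libraries is a comparison of 1 ratio, and the nearest of them lay 0.44 away.

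The letters that pair with the miR-30 seeds were looked for on the sense strand of UCA1 (plus strand of chr19:15828206-15836326, GRCh38, GENCODE release 29), since seed pairing is the usual route by which a miRNA joins a longer RNA. The complement of bases 2 to 8 of the 5p strands, TGTTTAC, was in 0 of 36 annotated isoforms, and so was the shorter GTTTAC, which pairs with bases 2 to 7 and is contained in it. In 1001 other long noncoding transcripts within 10% of the length of the 1444-nucleotide isoform, 7.49% held the first and 17.9% the second. The complement of bases 2 to 8 of the 3p strands, ACTGAAA, was in 0 of the isoforms and in 20.2% of these transcripts. The shorter CTGAAA, contained in it, was in 4 isoforms, though not in that of 1444 nucleotides, and in 55.1% of these transcripts. These percentages are a background for the 1444-nucleotide isoform alone, which held none of the 4 stretches. For the counts over 36 isoforms, no transcripts were matched in length. These are exact matches of letters in annotated transcripts, and the cloned UCA1 with its MS2 hairpins was not searched.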

How the data were processed

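Small RNA from 1 MS2 pulldown per group was sequenced by a service company after an Illumina protocol. The authors deposited, per library, whole-number counts of reads for each mature miRNA name, and RPM values, which are these counts scaled to a far larger library total. bcl2fastq and BWA are named in the submitters' processing notes; versions, build, miRNA release and use of strand are not given in the sources used here. A deposited table of the authors' own log2 fold changes and p-values was not used.

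Groups came from the sample labels. Library totals were recovered from counts and RPM. Shares carry Wilson intervals, and ratios and odds ratios exact conditional (Clopper-Pearson or noncentral hypergeometric) 95% intervals (scipy 1.17.1, pandas 2.3.3, Python 3.11.15, matplotlib 3.10.9). Molecular identifiers are not mentioned in the sources used here and reads can include PCR copies, so intervals cover counting error only. With 1 library per group there was no dispersion to estimate, so no count model was fitted, and a miRNA was called at 2-fold. A listed 0 was read as up to 9 counts, and miRNAs were kept at a summed count of at least 10. Alternatives were edgeR TMM (4.0.16) and DESeq2 (1.42.0) scaling in R 4.3.3, 3 other library sizes, 4-fold, 0.5 added counts, and other count minimums. Named were all members, the family's other 3p strands, hairpins with both arms counted, and the 3 miRNAs nearest in ratio. Members and lists were chosen with earlier results of these data known. Level ratios and their intervals were tested on simulated data, the intervals at higher counts only. Odds ratios and Wilson intervals were not tested in this way.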

Additional observations from a re-analysis of the deposited data

How the results depend on the processing

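The odds ratios between arms, on the log2 scale 2.62 for miR-30a and 2.01 for miR-30e, stayed within their counting intervals with both hairpins summed and with 0.5 counts added. These alternatives could hardly move them. miR-30a gave 470 of the 480 summed 5p counts in the UCA1-MS2 library and 1202 of 1226 in the control library. The interval of miR-30e is wide, and 0.5 is small beside the counts. On the log2 scale the summed 5p ratio of -0.07 became -0.25 with TMM, -0.45 with DESeq2 size factors, -0.42 without the most counted miRNA of each library (miR-21-5p and miR-100-5p) and -1.87 with the library totals. miR-30d-5p passed 2-fold lower with DESeq2 size factors (-1.13) and without those miRNAs (-1.10). The log2 ratio of miR-30a-5p fell from 0.50 to 0.33 with TMM, 0.12 with DESeq2 size factors and 0.15 without those miRNAs. Each of these lay outside its counting interval. miR-30a-5p and miR-30e-5p changed sign with the library totals alone (-1.30 and -1.21), and with 0.5 counts added the limit of miR-30b-5p, 1.03, gave way to a value of -4.42 that the added counts set. With miR-30a-5p, miR-30d-5p and miR-30e-5p summed, the log2 odds ratio of 1.16 for miR-30a-5p among the 5p counts fell to 0.49, because opposite shifts are added. Of the 151 miRNAs, 42 were higher and 19 lower. These counts became 11 and 86 with the library totals, 18 and 106 with 0.5 counts added as well (chosen after seeing the data), 42 and 67 with 0.5 counts added alone, and 23 and 5 at 4-fold. They were 40 and 23 with TMM, 36 and 32 with DESeq2 size factors, 36 and 31 without the most counted miRNAs, and 24 and 19 with at least 50 counts, which left 86 miRNAs. Leaving the members out of the library size, though not out of the 151, kept both counts as they were, and so did dropping the count minimum. No paired analysis was possible because each group has 1 library, and no replicate could be left out. The depth limits miR-30b-5p and miR-30e-5p above all, at 0 and 10 counts in the UCA1-MS2 library.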

Other observations

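Hairpins with an arm listed at 0 in one library were looked at after seeing the data, with 9 counts in place of the 0. There were 8 of them, and in 7 the arm at 0 was the less counted arm and was missing from the UCA1-MS2 library alone. For let-7d, with 28 and 0 counts in the UCA1-MS2 library and 74 and 46 in the control library, the lower limit of the odds ratio of 5p to 3p was 1.93. With 9 counts in place of the 0 its counting interval ran from 0.794 to 5.07, which does not settle a direction. For miR-27b the ratio was at most 0.322 times that of the control library, with 0 and 100 counts against 54 and 193 and a counting interval from 0.134 to 0.694, the same direction as for miR-27a. For the other 5 of these 7 hairpins, the limits lay on the side of 1 that leaves the direction undetermined.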
